A study of Mus musculus with 34 samples.

Results

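The genes described here are the signalling components of the T cell receptor, taken from a list of 39 gene symbols that runs from the receptor chains to the adaptors, kinases, lipase, calcium channel and inhibitors that act below them. A gene was found through the probe sets annotated to its symbol alone. The list is one of pathway members, but it was chosen with earlier results of these data known. Of the 39, 38 had such a probe set, 1 each, out of 19938 genes with a probe set in all. Lck, the kinase that starts the cascade, had none under its symbol and was not analysed here. RNA came from spleen cells of female mice, 8 weeks old, that had been separated with magnetic beads for CD4, the coreceptor carried by helper T cells. Cells held for 4 h with phorbol 12-myristate 13-acetate (PMA, 10 ng/ml) and ionomycin (1 uM) are called T1, and cells without these drugs T0. Both states were measured in 5 inbred strains without engineered alleles: A/J and C57BL/6J with 4 arrays at T1 and 4 at T0, and Balb/c, DBA/2J and 129X1/SvJ with 3 at T1 and 3 at T0, which makes 34 Affymetrix arrays in all. The labels call the replicates biological and do not say whether each came from its own mouse, so p values measure the spread between these samples. The protocol leaves unclear whether the T0 cells spent the same 4 h in culture.

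When a T cell meets its antigen, the receptor's CD3 and zeta chains are phosphorylated by kinases of the Src family and recruit ZAP-70, which phosphorylates the adaptors LAT and SLP-76. These gather phospholipase C gamma 1, VAV1 and exchange factors for Ras, and the lipase makes diacylglycerol and the messenger that opens calcium stores. Phosphatases, ubiquitin-binding proteins and small inhibitory adaptors hold the cascade in check. PMA replaces diacylglycerol and ionomycin raises cell calcium, so this pair of drugs works below the receptor and does not need the proximal genes to act. The arrays measure transcripts of these components, not their phosphorylation.

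Values are log2 intensities of the deposited table, so a difference of 1 is a doubling of signal, and levels of different genes cannot be compared with each other. All 38 genes passed the limit on dim genes (highest group mean at or above 5.327, the median of all values), which 11413 genes passed, and their lowest group mean was 5.47, that of Ubash3a in DBA/2J at T1. Correlations between arrays over all genes kept ran from 0.808 to 0.992. The array of Balb/c T1 replicate 2 stood apart, with a mean correlation of 0.948 with the other arrays of its group, against 0.965 to 0.989 for the other 33 arrays. Markers of other cells were present as well as those of T cells. B cell markers, measured with 13 genes, gave a score (mean log2 value minus its mean over the 34 arrays) of -0.98 to -0.27 at T1 and -0.17 to 1.47 at T0, and 10 of the 13 fell after stimulation while Blk, Cr2 and Ebf1 rose. The score of 7 T cell markers that are not among the 38 genes ran from -0.69 to 0.22 at T1 and from -0.24 to 0.54 at T0, with 2 of the 7 rising and 4 falling. Cd5, Cd28 and Trat1 of these markers are also among the other proximal genes of the pathway described below. Neutrophil markers fell in 6 of 7 cases, myeloid markers in 8 of 12 with 1 rising, and CD8 and NK markers in 5 of 6 with 1 rising, while 1 of 8 erythroid markers fell and none rose. In RNA from a mixed sample, fewer cells of a type and less RNA per cell cannot be told apart.

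Stimulation changed most of these genes, and falls outnumbered rises. In the mean over the 5 strains, 33 of the 38 passed the test (limma, adjusted p under 0.05, adjusted by Benjamini-Hochberg over all 11413 genes), against 82.3% of all genes tested, so the number called is near the background. Their directions were less balanced: 9 genes rose, where 36.0% of all genes did, and 24 fell, where 46.3% did. The median change of the 38 was -0.51, against -0.07 over all genes. Centring each array on its median shifted all genes upward by 0.23, and the split among the members became 15 rises and 20 falls. Of all 11413 genes, 5908 then rose and 3851 fell, so the background shifted too. Grb2 turned from a fall to a rise, and Pag1 turned in sign without a call. Since centring shifts every gene alike, the distance between the members' median and that of all genes stayed at -0.44 by construction. It was -0.46 with quantile normalization, -0.33 with a stricter filter and -0.60 without a filter.

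The rises were Malt1 (1.39), Zap70 (1.18), Ptpn22 (1.11), Orai1 (1.08), Sla (1.07), Fyn (0.43), Themis (0.36), Cd6 (0.21) and Cd2 (0.18), all as T1 minus T0 in log2 units. Falls of 1 log2 unit or more were those of Fyb, Grap2, Cd3g, Ubash3a, Ptpn6, Sla2, Txk, Skap1 and Csk. For 18 genes the 17 arrays at T1 and the 17 at T0 did not overlap, 13 with every T1 array lower and 5 with every T1 array higher. Over all genes tested, 26.7% did not overlap and 17.5% had every T1 array lower. In 24 genes the change was called in each of the 5 strains, as it was in 39.4% of all genes tested. Nck1, Lcp2, Sh2d2a, Lat and Bcl10 were not called in the mean over strains, but with centred arrays all 5 were called as rises.

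**Figure D1:**
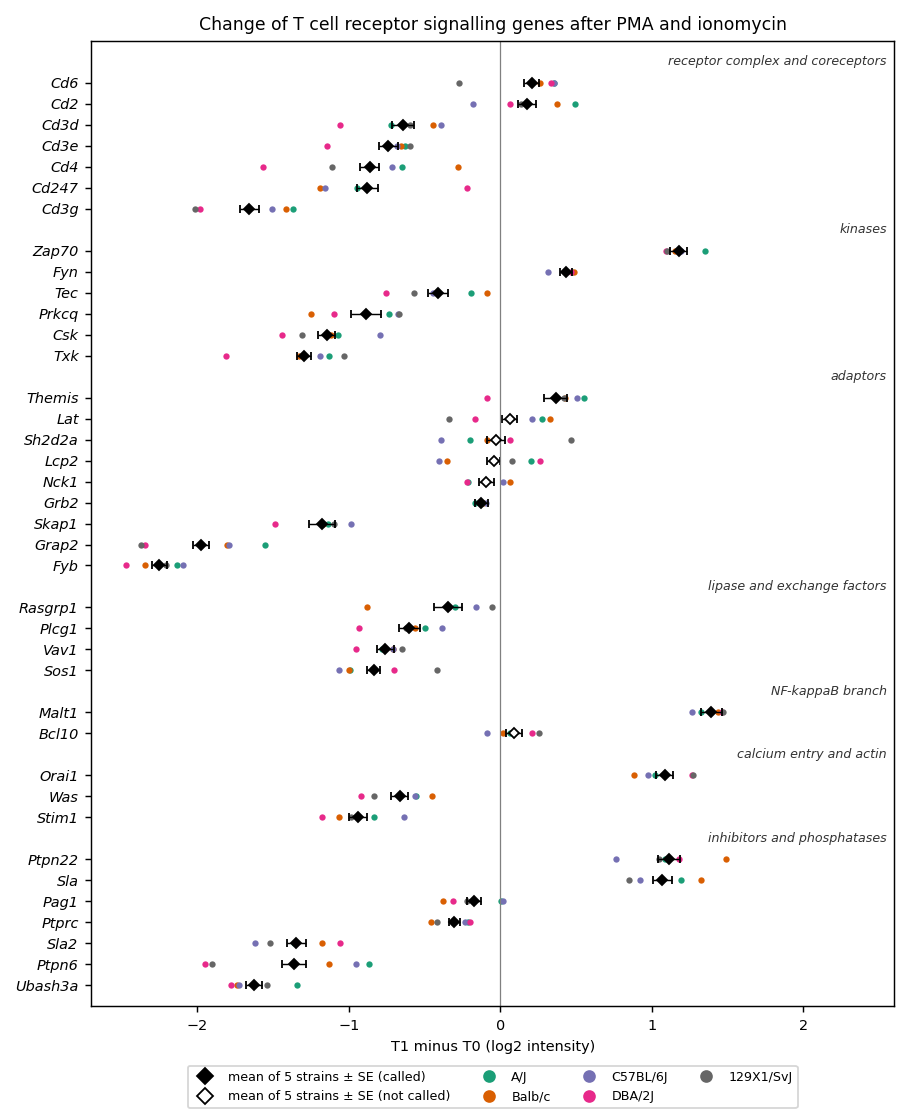
T1 minus T0 in log2 intensity (x axis) for 38 genes grouped by role (y axis). Diamonds are the mean of 5 strains with its standard error, filled where the adjusted p was under 0.05, and coloured points are the single strains. Fyb and Grap2 lie farthest to the left (-2.25 and -1.97) and Malt1 farthest to the right (1.39). With arrays centred on their medians the means lie 0.23 further right, which turns the means of Grb2, Pag1, Lcp2, Nck1 and Sh2d2a positive.

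The receptor complex lost transcript of its 4 measured signalling chains and of Cd4, the coreceptor. The adhesion receptors Cd2 and Cd6 rose slightly in the mean over strains, so that 5 of 7 genes in this group fell and 2 rose. Cd6 rose by 0.21 (SE 0.05, adjusted p = 3.04e-04) and Cd2 by 0.18 (SE 0.06, adjusted p = 0.00742), and the rise of Cd2 was not called with quantile normalization (adjusted p = 0.111). In Balb/c the rise of Cd2 was 0.38 (adjusted p = 0.0242, limma), but 0.16 (adjusted p = 0.332) without T1 replicate 2, the array that stood apart. C57BL/6J had a lower Cd2 mean at T1, with 10.65, 10.31, 10.35 and 10.80, against 10.56, 10.67, 10.74 and 10.88 at T0. The largest fall was that of Cd3g, one of the CD3 chains that pair with the antigen-binding chains. Its log2 intensity was 8.61 to 10.35 with a median of 9.57 at T1, and 10.77 to 11.47 with a median of 11.21 at T0, a change of -1.66 (SE 0.06, adjusted p = 6.39e-21, limma). All 17 T1 arrays were below all 17 T0 arrays. The partner chains Cd3e and Cd3d changed less, by -0.74 (SE 0.06, adjusted p = 3.20e-12) and -0.64 (SE 0.07, adjusted p = 3.35e-09), and their arrays overlapped. Cd247, the zeta chain with the most phosphorylation motifs, had 7.29 to 8.07 at T1 and 7.63 to 9.13 at T0, a change of -0.88 (SE 0.07, adjusted p = 7.22e-13). The overlap came from the 3 DBA/2J arrays at T0, which were the lowest of the T0 arrays.

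Cd3g, Cd3d and Cd3e are neighbours on mouse chromosome 9, with no other protein-coding gene between them in the RefSeq annotation of assembly GRCm38.p6, and Cd3g and Cd3d start close together on opposite strands. Promoter windows of 300 bases around the annotated start, most of them upstream of it, from RefSeq on the same assembly, are printed for these 3 genes and for Cd247, since chains of 1 complex and of 1 gene cluster fell by unequal amounts. They read from 5′ to 3′ on the gene's own strand, and capitals mark, on either strand, the E-box CAGNTG, the ETS motif CNGGAAGT and the cyclic AMP response motif TGACGT.
Cd3g, chr9:44980382-44980681, minus strand: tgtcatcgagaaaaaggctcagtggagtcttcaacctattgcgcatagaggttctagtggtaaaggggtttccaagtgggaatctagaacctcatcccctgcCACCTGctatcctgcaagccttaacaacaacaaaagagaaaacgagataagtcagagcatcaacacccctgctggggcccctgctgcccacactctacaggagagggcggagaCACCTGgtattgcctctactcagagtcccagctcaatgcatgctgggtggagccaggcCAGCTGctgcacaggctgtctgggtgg
Cd3d, chr9:44981536-44981835, plus strand: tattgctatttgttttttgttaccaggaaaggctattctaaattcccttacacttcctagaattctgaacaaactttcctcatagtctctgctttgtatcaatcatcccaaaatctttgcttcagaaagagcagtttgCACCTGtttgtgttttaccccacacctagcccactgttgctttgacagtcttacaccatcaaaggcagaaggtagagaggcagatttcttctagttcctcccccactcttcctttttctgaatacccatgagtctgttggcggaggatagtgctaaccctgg
Cd3e, chr9:45009562-45009861, minus strand: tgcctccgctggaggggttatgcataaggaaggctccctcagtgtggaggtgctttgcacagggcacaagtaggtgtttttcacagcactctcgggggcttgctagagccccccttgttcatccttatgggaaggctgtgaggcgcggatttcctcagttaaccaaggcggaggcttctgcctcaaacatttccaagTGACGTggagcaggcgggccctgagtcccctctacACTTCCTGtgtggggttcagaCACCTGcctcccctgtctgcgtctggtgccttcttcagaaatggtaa
Cd247, chr1:165788431-165788730, plus strand: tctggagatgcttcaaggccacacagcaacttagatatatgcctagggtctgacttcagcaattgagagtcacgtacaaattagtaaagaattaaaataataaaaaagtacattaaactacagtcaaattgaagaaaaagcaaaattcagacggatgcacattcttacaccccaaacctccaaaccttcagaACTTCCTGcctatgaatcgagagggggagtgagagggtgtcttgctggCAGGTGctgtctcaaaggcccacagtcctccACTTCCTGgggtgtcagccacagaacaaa
The Cd3g window held 3 E-boxes and none of the other motifs, that of Cd3d held 1 E-box, that of Cd3e held 1 of each motif, and that of Cd247 held 1 E-box and 2 ETS motifs. Windows were found for 30 of the 38 genes, 39 windows in all since some genes have several starts. Of these 39, 24 held an E-box, against 51.4% of 32851 promoter windows of the same length, and 7 held the ETS motif, against 9.53%. The AP-1 motif TGANTCA was in 0 of the 39 windows, against 7.81% of all windows, the motif GGAAAA that NFAT factors bind in 7, against 23.4%, and TGACGT in 4, against 7.51%. These motifs are short, and a match describes letters and does not show a bound site.

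**Figure D2:**
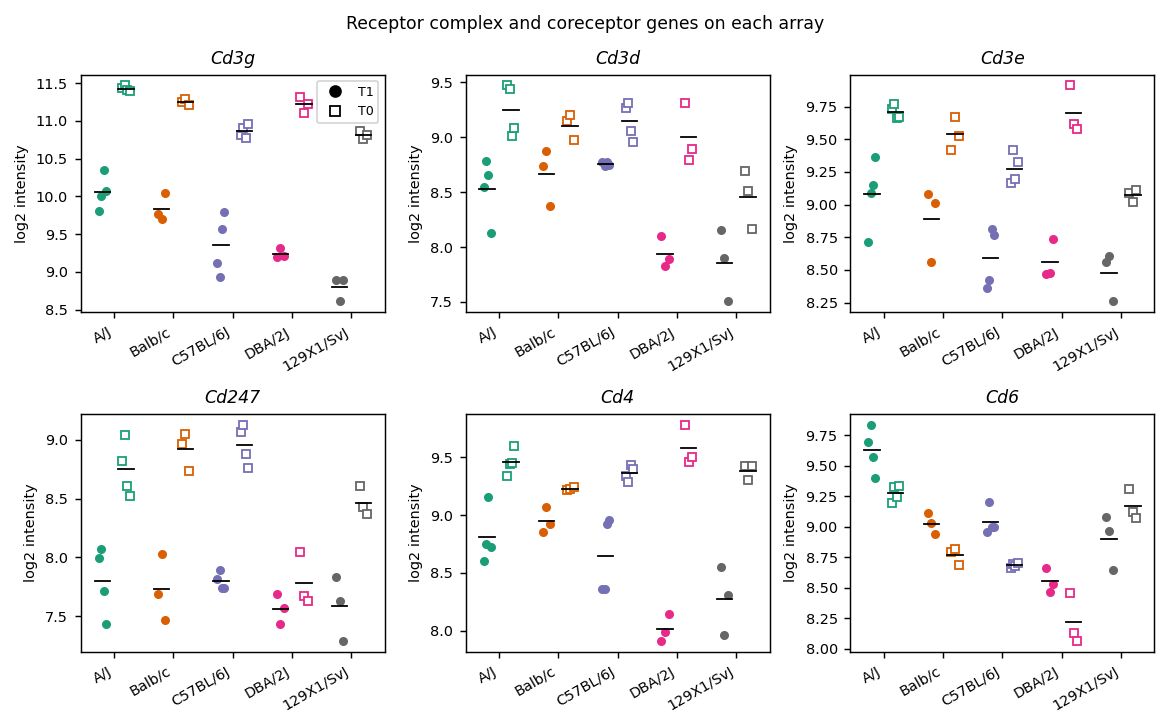
Log2 intensity (y axis) of 6 receptor complex and coreceptor genes on each of the 34 arrays, by strain (x axis), with T1 as filled circles to the left and T0 as open squares to the right of each strain. Bars are group means of 3 or 4 arrays. Cd3g lies lower at T1 in every strain, Cd247 at T0 is lowest in DBA/2J (mean 7.78), and Cd4 at T1 is lowest in DBA/2J (mean 8.02).

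Of the 6 kinases, Zap70 and Fyn rose while Txk, Csk, Prkcq and Tec fell. Zap70, the kinase that docks on the phosphorylated chains, had 8.88 to 9.86 with a median of 9.46 at T1 and 7.90 to 8.43 with a median of 8.31 at T0. The change was 1.18 (SE 0.06, adjusted p = 1.73e-18), with all T1 arrays above all T0 arrays, and it lay between 1.09 and 1.35 in the 5 strains, the signal being 2.26 times as high in the mean. Fyn, a Src family kinase, had 10.28 to 10.78 at T1 and 9.91 to 10.38 at T0, a rise of 0.43 (SE 0.04, adjusted p = 1.65e-11), with 15 of 17 T1 arrays above all T0 arrays. The direction of both kinases was opposite to that of the receptor chains on which they act.

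Txk, a Tec family kinase of T cells, had 7.75 to 8.57 with a median of 8.26 at T1 and 8.91 to 9.75 with a median of 9.53 at T0, a change of -1.30 (SE 0.05, adjusted p = 2.00e-21) without overlap. Tec, its neighbour on chromosome 5 and the founding member of that family, changed by -0.41 (SE 0.07, adjusted p = 1.25e-06), and the fall was called in 3 of 5 strains. Csk, which switches Src family kinases off, fell by 1.15 on the log2 scale (SE 0.06, adjusted p = 6.32e-18) without overlap. Prkcq, the protein kinase C of the T cell synapse and a target of PMA, had 8.65 to 9.71 at T1 and 9.44 to 10.91 at T0, a change of -0.88 (SE 0.10, adjusted p = 1.97e-09). Its T0 arrays spread widely within strains, as described further on.

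The adaptors split into those that fell steeply and those that moved little. Of 9, 4 fell, 1 rose and 4 were not called. Fyb (the adaptor ADAP, which links SLP-76 to integrins) had the largest change of all 38 genes, with 7.58 to 8.70 (median 8.29) at T1 and 10.00 to 10.84 (median 10.46) at T0. Its change was -2.25 (SE 0.05, adjusted p = 7.99e-27), a 4.76-fold lower signal, and it lay between -2.47 and -2.09 in the 5 strains. Skap1, which binds the protein of Fyb in the same integrin module, had 6.60 to 7.86 at T1 and 7.78 to 8.98 at T0, a change of -1.18 (SE 0.09, adjusted p = 1.45e-13), with 16 of 17 T1 arrays below all T0 arrays.

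Grap2 (GADS, which bridges LAT and SLP-76) had 7.67 to 8.91 (median 8.45) at T1 and 10.09 to 10.44 (median 10.25) at T0, a change of -1.97 (SE 0.05, adjusted p = 1.02e-24) without overlap. For the genes of the proteins on either side of that bridge the mean change was not called, and its sign or call depended on the scaling. Lat changed by 0.06 (SE 0.05, adjusted p = 0.256) and Lcp2, which encodes SLP-76, by -0.04 (SE 0.04, adjusted p = 0.348). With centred arrays both were called as rises, Lat by 0.29 (adjusted p = 4.43e-06) and Lcp2 by 0.19 (adjusted p = 0.00114), and with quantile normalization Lcp2 was called as a fall (-0.11, adjusted p = 0.0141). Grb2, an adaptor of the same family as Grap2, changed by -0.13 (SE 0.04, adjusted p = 0.0115) and was called in no single strain. Its fall was not called with quantile normalization, and with centred arrays it turned to a rise of 0.10.

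Themis, known for its part in T cell selection in the thymus, rose by 0.36 (SE 0.07, adjusted p = 6.72e-05). The response was 0.42 to 0.55 in 4 strains and -0.09 in DBA/2J, but in Balb/c it was 0.13 (adjusted p = 0.527) without T1 replicate 2, the array that stood apart, against 0.43 (adjusted p = 0.0436) with it. Nck1, an adaptor of the actin pathway, changed by -0.09 (SE 0.05, adjusted p = 0.0734), and without the outlying array of Balb/c T1 replicate 2 by -0.11 (adjusted p = 0.0327). Sh2d2a (the adaptor TSAd) changed by -0.03 (SE 0.06, adjusted p = 0.638) in the mean, with strain responses on both sides of 0.

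All 4 genes of the lipase and exchange factor group fell in the mean over strains. Sos1, an exchange factor that loads Ras, had 6.73 to 7.15 at T1 and 7.40 to 8.18 at T0, a change of -0.84 (SE 0.04, adjusted p = 9.44e-18) without overlap. Vav1, an exchange factor for Rac, changed by -0.76 (SE 0.05, adjusted p = 6.96e-14), also without overlap, and Plcg1, the lipase, by -0.60 (SE 0.07, adjusted p = 1.37e-09) with overlap. Rasgrp1, an exchange factor that binds diacylglycerol and therefore PMA, changed by -0.35 (SE 0.09, adjusted p = 0.00104). Its fall was called in Balb/c alone (-0.88, SE 0.22, adjusted p = 9.39e-04), and it was not called in the mean when arrays were centred (-0.12, adjusted p = 0.186). The change also depended on the replicate number. A/J replicates 1 and 2 had 9.90 and 9.99 at T1 and 10.66 and 10.70 at T0. Replicates 4 and 5 had 9.95 and 9.79 at T1 and 9.69 and 9.77 at T0. C57BL/6J was likewise lower at T1 in replicates 1 and 2 and higher in replicates 3 and 4. In Balb/c and DBA/2J every T1 array was below the T0 array of its number.

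In the NF-kappaB branch, Malt1, the protease of the complex that joins antigen receptors to NF-kappaB, rose most of all 38 genes. Its intensity was 9.85 to 10.82 (median 10.45) at T1 and 8.52 to 9.50 (median 8.93) at T0, a change of 1.39 (SE 0.07, adjusted p = 6.47e-18) without overlap. Bcl10, its partner in that complex, changed by 0.09 (SE 0.05, adjusted p = 0.106) and was called in no single strain. It was called as a rise with quantile normalization (0.17, adjusted p = 9.11e-04) and with centred arrays (0.32, adjusted p = 1.71e-06).

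The calcium and actin genes moved apart. Orai1, the pore of the calcium channel in the cell membrane, had 8.59 to 9.25 (median 8.91) at T1 and 7.37 to 8.29 (median 7.95) at T0, a rise of 1.08 (SE 0.06, adjusted p = 4.51e-17) without overlap. Stim1, the sensor in the endoplasmic reticulum that opens this pore, had 7.35 to 8.62 (median 8.02) at T1 and 8.72 to 9.13 (median 8.93) at T0, a change of -0.94 (SE 0.06, adjusted p = 3.70e-15), also without overlap. Was, which drives actin branching at the synapse, changed by -0.67 (SE 0.05, adjusted p = 8.29e-13) without overlap.

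Among the 7 inhibitors and phosphatases, Ptpn22 and Sla rose and 5 fell. Ptpn22, a phosphatase that acts on Src family kinases and ZAP-70, had 10.33 to 11.08 (median 10.73) at T1 and 8.90 to 10.16 (median 9.65) at T0, a change of 1.11 (SE 0.07, adjusted p = 1.05e-14). Sla, an adaptor that promotes degradation of the receptor chains, had 10.01 to 10.86 (median 10.30) at T1 and 8.91 to 9.55 (median 9.23) at T0, a change of 1.07 (SE 0.06, adjusted p = 4.39e-16). Neither gene's arrays overlapped between T1 and T0. Sla2, the close relative of Sla, went the other way, with 5.96 to 6.73 (median 6.29) at T1 and 6.98 to 8.09 (median 7.76) at T0, a change of -1.35 (SE 0.06, adjusted p = 7.40e-19).

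Ubash3a, a ubiquitin-binding suppressor of T cell receptor signalling, had 5.42 to 6.45 (median 5.94) at T1 and 7.10 to 7.81 (median 7.54) at T0, a change of -1.63 (SE 0.06, adjusted p = 5.14e-22). Ptpn6 (the phosphatase SHP-1, which many blood cells besides T cells express) had 7.19 to 8.24 (median 7.61) at T1 and 8.53 to 9.68 (median 8.92) at T0, a change of -1.36 (SE 0.08, adjusted p = 4.30e-16). Both fell without overlap. Of the 13 B cell markers, 10 also fell and 3 (Blk, Cr2 and Ebf1) rose. The largest of those falls was that of Cd79b, with 5.23 to 6.70 at T1 and 9.28 to 11.12 at T0. The part of other cells in the falls of Ubash3a and Ptpn6 was not tested. Ptprc (CD45) changed by -0.31 (SE 0.04, adjusted p = 4.92e-09) and Pag1, the membrane anchor of Csk, by -0.18 (SE 0.05, adjusted p = 0.00118). With centred arrays neither was called, at -0.08 (adjusted p = 0.110) for Ptprc and 0.05 (adjusted p = 0.263) for Pag1.

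Other genes of the pathway moved in both directions. Of all genes tested, 36.0% rose and 46.3% fell, with a median change of -0.07. Another 34 proximal genes were listed, of which 31 passed the limit. Of these, 14 fell, 8 rose and 9 missed the threshold, and their median change was -0.01. Their falls were thus near the share of all genes. The largest rises were those of Dusp22 (2.70), a phosphatase, Tespa1 (2.14), an adaptor, and Ctla4 (1.87), an inhibitory receptor. The largest falls were those of Inpp5d (-2.0), the lipid phosphatase SHIP-1, Lax1 (-1.74), an inhibitory adaptor, and Pik3cd (-1.58), a catalytic subunit of phosphoinositide 3-kinase. Another 39 distal genes were listed, of which 31 passed. Of these, 24 fell, 6 rose and 1 missed the threshold, and their median change was -0.53. Their falls were above the share of all genes. Traf6 (1.20), Nfatc1 (0.65) and Stim2 (0.48) rose most, and Rasgrp2 (-1.29), Nfatc3 (-1.24) and Dgka (-1.22) fell most. Inpp5d and Pik3cd are also expressed in B cells and myeloid cells.

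Within single strains the numbers called were similar. In A/J 31 of 38 were called (56.6% of all genes tested), with 11 rises (20.3%) and 20 falls (36.3%). Balb/c had 31 called (54.7%), with 9 rises (20.6%) and 22 falls (34.1%). C57BL/6J had 31 (63.7%), with 8 rises (25.1%) and 23 falls (38.6%). DBA/2J had 29 (60.0%), with 8 rises (23.8%) and 21 falls (36.2%). 129X1/SvJ had 31 (56.3%), with 8 rises (21.6%) and 23 falls (34.7%). The change had the same sign in all 5 strains for 29 genes, a count that was not made over all genes. Grb2 had the narrowest range of strain responses, from -0.17 to -0.10, and Cd4 the widest, from -1.56 to -0.28.

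Strains also differed before stimulation, most often through lower signal in DBA/2J and 129X1/SvJ. Whether the strains differ in sequence under the probes was not examined, so these are differences of signal. At T0 an F test over the 5 strains called 20 of 38, against 18.5% of all genes tested. The median range between the highest and the lowest strain mean was 0.51, against 0.27 over all genes. The strain with the most genes apart from the mean of the other 4 was 129X1/SvJ, with 13 (3 higher, 10 lower). Of all genes tested, 9.44% were called there, in either direction, as are the shares that follow. DBA/2J had 10 (2 higher, 8 lower, against 6.34%). C57BL/6J had 7 (5 higher, 2 lower, against 8.92%), A/J 6 (all higher, against 7.21%) and Balb/c 6 (4 higher, 2 lower, against 3.54%). These differences stood beside those of the marker scores: the T cell score at T0 averaged -0.11 for DBA/2J, 0.01 for 129X1/SvJ and 0.28 to 0.44 for the other 3 strains, while the B cell score averaged 1.12 and 1.15 in these strains, and 0.17 to 0.46 in the others. Markers of other cells differed more between strains at T0, the erythroid score from -1.98 in 129X1/SvJ to 1.04 in A/J and the neutrophil score from -0.55 in C57BL/6J to 1.51 in A/J. The part of these cells in the strain differences was not tested.

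The widest T0 range was that of Sh2d2a, 1.29 (adjusted p = 7.03e-08). C57BL/6J arrays had 10.54, 10.47, 10.32 and 10.23, and 129X1/SvJ arrays 9.16, 9.11 and 9.02, with A/J (9.45 to 9.84), Balb/c (9.82 to 9.96) and DBA/2J (9.35 to 9.77) between them. C57BL/6J was above and 129X1/SvJ below every array of the other strains. C57BL/6J lay 0.85 (SE 0.10, adjusted p = 1.72e-07) above the mean of the others and 129X1/SvJ -0.77 (SE 0.11, adjusted p = 6.32e-06) from it.

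Cd247 at T0 set DBA/2J apart. Its arrays had 8.04, 7.67 and 7.63, against 8.36 to 9.13 in the other 4 strains, and no DBA/2J array reached that range. The difference from the mean of the others was -0.99 (SE 0.13, adjusted p = 2.47e-06). The signal of the zeta chain in unstimulated DBA/2J cells lay within the range that other strains had after stimulation (7.29 to 8.07). The CD3 chains of DBA/2J did not show this at T0: Cd3g averaged 11.22 ± 0.11 in DBA/2J (SD, n = 3) and 10.81 to 11.43 in the other strains, and none of the 3 CD3 genes was called for DBA/2J at T0.

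Cd6 had 8.45, 8.13 and 8.07 in DBA/2J at T0, lowest of the strains, against 8.66 to 8.82 in Balb/c and C57BL/6J and 9.07 to 9.33 in A/J and 129X1/SvJ, 3 levels that did not overlap (adjusted p = 3.45e-08 for the F test). The same gene at T1 again had its lowest mean in DBA/2J (8.66, 8.46 and 8.53) and its highest in A/J (9.70, 9.84, 9.57 and 9.40), with a range of 1.07 (adjusted p = 2.14e-07). Lcp2 at T0 had 9.29, 9.30 and 9.26 in DBA/2J and 9.35, 9.36 and 9.36 in 129X1/SvJ, against 9.84 to 10.11 in the other 3 strains (range 0.71, adjusted p = 9.57e-08). DBA/2J and 129X1/SvJ also had the lowest T cell scores at T0, and a link with Lcp2 was not tested.

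Not all differences ran toward lower signal in those strains. Tec had 7.41, 7.84 and 7.59 in DBA/2J at T0 and 6.60 to 7.47 in the other strains, so that 1 DBA/2J array lay within their range, and the mean was 0.66 (SE 0.12, adjusted p = 3.35e-04) above theirs. Its neighbour Txk was also higher in DBA/2J (0.33, SE 0.09, adjusted p = 0.0148) and lower in 129X1/SvJ (9.01, 8.96 and 8.91, against 9.27 to 9.75 in the other strains, a difference of -0.63 with SE 0.09, adjusted p = 3.94e-06). Sla2 had its lowest mean in DBA/2J (7.42, 6.98 and 7.09) and its highest in 129X1/SvJ (8.09, 7.90 and 8.06), each overlapping with arrays of other strains, and a range of 0.86 (adjusted p = 1.35e-04). Ptpn6 averaged 9.40 ± 0.15 in DBA/2J and 9.38 ± 0.31 in 129X1/SvJ (SD, n = 3 each), against 8.64 to 8.97 in the other strains (adjusted p = 0.00184 for the F test). DBA/2J and 129X1/SvJ also had the highest B cell scores at T0, and a link with Ptpn6 was not tested.

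Ptpn22 at T0 was lowest in Balb/c (8.95, 8.90 and 9.45), -0.59 (SE 0.14, adjusted p = 0.00796) from the mean of the other strains, and its arrays also differed within strains. Prkcq and Rasgrp1 shared a pattern of this kind. Prkcq had 10.85 and 10.86 in A/J T0 replicates 1 and 2, but 9.86 and 9.80 in replicates 4 and 5. In C57BL/6J it had 10.47 and 10.53 in replicates 1 and 2, and 9.73 and 9.77 in replicates 3 and 4. Rasgrp1 had 10.66 and 10.70 in A/J T0 replicates 1 and 2, and 9.69 and 9.77 in replicates 4 and 5. Both genes had their highest mean in Balb/c, with 10.86, 10.91 and 10.29 for Prkcq, 0.68 above the mean of the others (adjusted p = 0.0312), and 10.75, 10.75 and 10.29 for Rasgrp1, 0.72 above it (adjusted p = 0.00937). The Balb/c arrays were replicates 1, 2 and 4 and those of DBA/2J replicates 2, 3 and 4, so replicate numbers were not balanced between strains. The lowest mean of Prkcq was in 129X1/SvJ (9.77, 9.74 and 9.44) and that of Rasgrp1 in DBA/2J (10.00, 9.27 and 9.40).

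The mean of arrays numbered 1 and 2 lay above that of arrays numbered 3 to 5 in all 5 strains for 9 genes at T0, and below it in all 5 for 5 genes. At T1 these counts were 8 and 4, with mean differences over strains from -0.30 for Cd3g to 0.32 for Cd247. Neither the T0 nor the T1 counts were made over all genes, so they do not show whether the split is particular to these genes. At T0 the mean difference over strains was 0.59 for Prkcq, 0.58 for Rasgrp1, -0.34 for Malt1 and -0.41 for Ptpn22, and at T1 it lay between -0.03 and 0.11 for these 4 genes. The labels name no batch, and the split was made after the values were seen. With the number taken as a block, the T0 strain differences stayed called for Prkcq (range 1.04, adjusted p = 0.0113 without and 0.00274 with the block) and Rasgrp1 (range 1.04, adjusted p = 0.00289 without and 9.04e-04 with it). Both ranges are those of group means not adjusted for the number. For Prkcq the call was lost without Balb/c T0 replicate 2 (adjusted p = 0.0511).

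**Figure D3:**
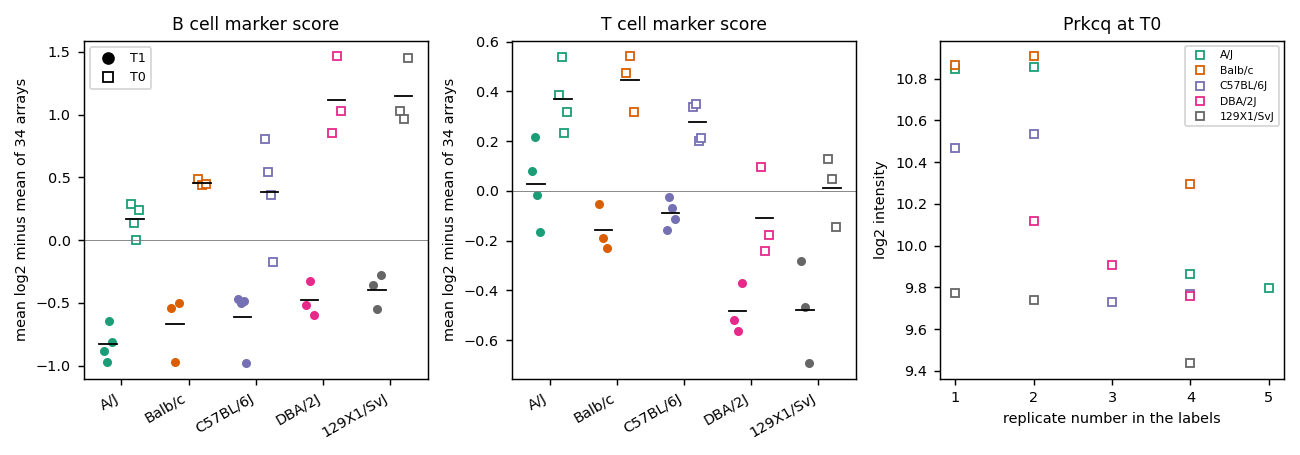
The left and middle panels give the B cell and T cell marker scores (mean log2 value minus the mean of 34 arrays, y axis) per array, by strain (x axis), with T1 as filled circles and T0 as open squares and bars at group means. The B cell score at T0 is highest in 129X1/SvJ and DBA/2J (means 1.15 and 1.12). The right panel gives the log2 intensity of Prkcq at T0 by replicate number, which is highest at numbers 1 and 2 in each strain with both kinds of number.

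After stimulation the strains differed in 23 of 38 genes, against 31.0% of all genes tested, with a median range of 0.57, against 0.34 over all genes. Of the 38, 11 were called at both times, 12 at T1 only, 9 at T0 only and 6 at neither. A call at a single time does not show that the strain difference changed with stimulation, which only the test of the responses addresses. DBA/2J had 15 genes apart from the mean of the others at T1, all lower (11.1% of all genes tested were called, in either direction). A/J had 14, 13 of them higher (15.5%), C57BL/6J 9, all higher (10.7%), 129X1/SvJ 9, all lower (11.5%), and Balb/c 2, both higher (1.59%). The mean of DBA/2J was the lowest of the 5 for 21 of the 38 genes and that of A/J the highest for 17. The order of strain means was not counted over all genes. The T cell marker score at T1 was likewise lowest in DBA/2J and 129X1/SvJ and highest in A/J, with -0.48 ± 0.10 in DBA/2J and -0.48 ± 0.21 in 129X1/SvJ (SD, n = 3 each), -0.16 ± 0.09 in Balb/c (n = 3), -0.09 ± 0.06 in C57BL/6J and 0.03 ± 0.16 in A/J (n = 4 each).

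Cd3g had the widest T1 range, 1.26 (adjusted p = 3.08e-07). A/J arrays had 9.81, 10.01, 10.35 and 10.08, Balb/c 9.77, 9.71 and 10.04, C57BL/6J 9.11, 8.94, 9.57 and 9.79, DBA/2J 9.19, 9.31 and 9.22, and 129X1/SvJ 8.89, 8.61 and 8.90. 129X1/SvJ lay below all arrays of the other strains and A/J above all of C57BL/6J and DBA/2J, while the neighbours A/J and Balb/c overlapped, as did C57BL/6J and DBA/2J. Cd3d was low in DBA/2J (8.10, 7.82 and 7.89) and 129X1/SvJ (8.16, 7.90 and 7.50), against 8.13 to 8.87 in the other strains, with 1 129X1/SvJ array in their range (range 0.90, adjusted p = 1.13e-04).

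Grap2 at T1 had 7.89, 7.69 and 7.78 in DBA/2J and 8.17, 7.86 and 7.67 in 129X1/SvJ, against 8.18 to 8.91 in the other strains, which did not overlap with them (range 1.00, adjusted p = 1.90e-07). Themis had 6.67, 6.81 and 6.94 in DBA/2J, below all arrays of the other strains (7.26 to 8.26), a difference of -0.75 (SE 0.14, adjusted p = 5.47e-04). Pag1 and Stim1 at T1 were highest in C57BL/6J, 0.49 (SE 0.08, adjusted p = 8.57e-05) and 0.48 (SE 0.10, adjusted p = 0.00142) above the mean of the others.

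**Figure D4:**
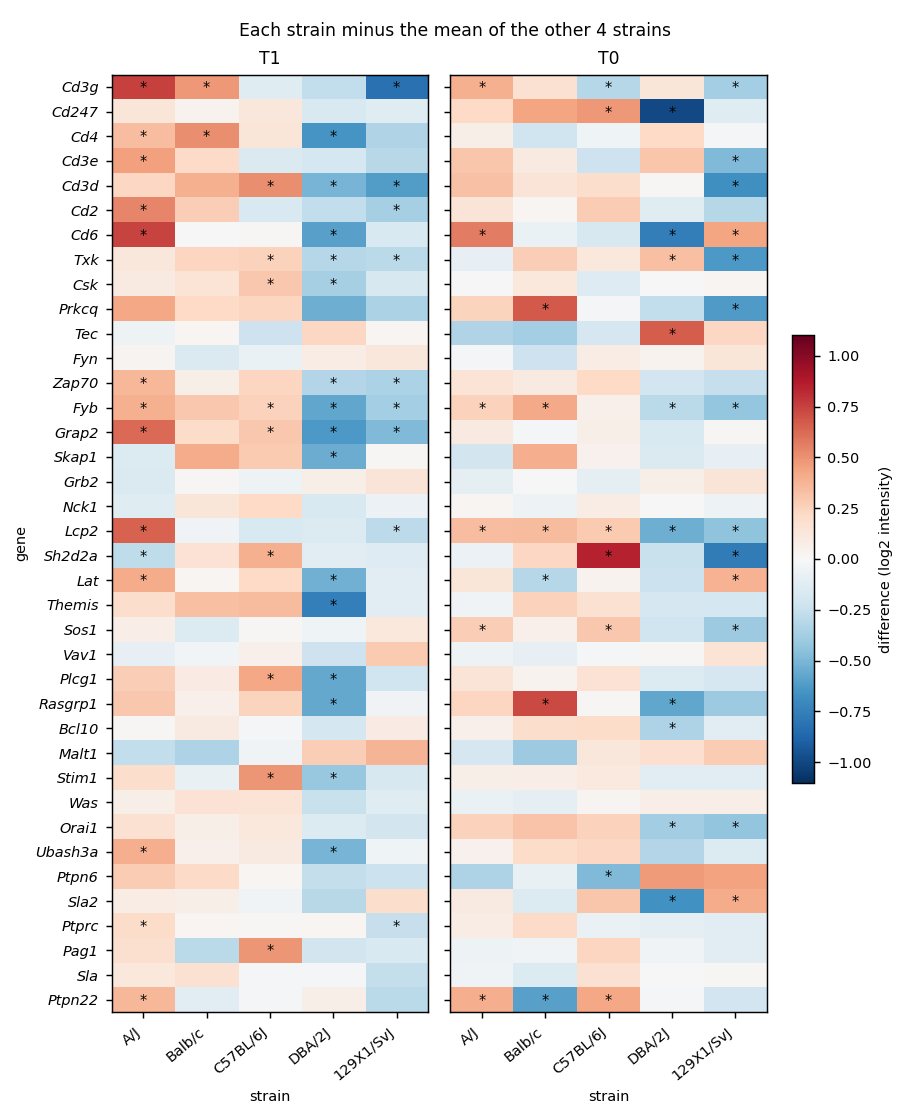
Colour gives the log2 intensity of each strain minus the mean of the other 4 strains, at T1 (left) and T0 (right), for 38 genes (rows, grouped by role) and 5 strains (columns). Stars mark an adjusted p under 0.05. At T1 all 15 stars of DBA/2J and all 9 of 129X1/SvJ are on lower values, and 13 of the 14 of A/J are on higher values.

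The size of the response differed between strains for 11 genes, Cd4, Ptpn6, Cd247, Sh2d2a, Grap2, Txk, Lcp2, Lat, Cd3g, Sos1 and Cd6, against 6.92% of all genes tested. The median range of the responses was 0.57, against 0.36 over all genes. Single strains set apart from the mean of the others were 129X1/SvJ for 5 genes (1.95% of all genes tested were called), DBA/2J for 3 (2.38%) and A/J (1.03%), Balb/c (0.526%) and C57BL/6J (2.76%) for 1 each. T1 and T0 values both enter a response, so these differences share arrays with the comparisons at each time.

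Cd4 had the widest range of responses, 1.28 (adjusted p = 0.00105). In DBA/2J its arrays had 7.91, 7.99 and 8.15 at T1 and 9.78, 9.45 and 9.51 at T0, a change of -1.56 (SE 0.15). In Balb/c they had 8.86, 9.07 and 8.92 at T1 and 9.21, 9.22 and 9.24 at T0, a change of -0.28 (SE 0.15, adjusted p = 0.118). The strains differed in Cd4 at T1 (adjusted p = 6.09e-05) and were not called at T0 (adjusted p = 0.504). Without the outlying Balb/c T1 replicate 2, the departure of Balb/c from the other strains was 0.67 with an adjusted p of 0.0698, against 0.73 and 0.0302 with it.

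For Cd247 DBA/2J stood at the other end. Its response was -0.22 (SE 0.16, adjusted p = 0.253) in DBA/2J, where T1 arrays had 7.69, 7.44 and 7.57 and T0 arrays 8.04, 7.67 and 7.63, and -1.19 to -0.88 in the other strains. The range was 0.97 with an adjusted p of 0.0242, and the range of strain means was 0.24 at T1 and 1.18 at T0. The T1 range was not called (adjusted p = 0.517), but it was with the replicate number as a block (0.0367) and with array weights (0.0438). The call rested on the few DBA/2J arrays, since the adjusted p was 0.0603 to 0.0968 without T1 replicate 2, T1 replicate 4, T0 replicate 3 or T0 replicate 4 of that strain.

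Ptpn6 had responses of -1.95 in DBA/2J and -1.90 in 129X1/SvJ (SE 0.19 each), against -1.13 to -0.86 in the other strains (range 1.08, adjusted p = 0.00391). DBA/2J had 7.33, 7.60 and 7.44 at T1 and 9.31, 9.57 and 9.32 at T0, and A/J 7.61, 8.00, 8.19 and 7.75 at T1 and 8.82, 8.66, 8.78 and 8.75 at T0. In T1 cells the strain ranges overlapped and the F test did not call the gene (adjusted p = 0.145), although it did without Balb/c T1 replicate 2 (adjusted p = 0.00297), with the replicate number as a block (0.0321) and with array weights (0.00597). Grap2 also had its largest falls in these strains, with -2.35 in DBA/2J and -2.38 in 129X1/SvJ (SE 0.12 each), and -1.55 in A/J (SE 0.11), a range of 0.82 (adjusted p = 0.00173). Cd3g had -2.01 in 129X1/SvJ, -1.98 in DBA/2J and -1.37 in A/J, but its adjusted p of 0.0499 was at 0.05 or above in 32 of 42 alternatives, which together gave 0.0124 to 0.105.

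Txk fell most in DBA/2J (-1.81, SE 0.11, against -1.33 to -1.03 in the other strains, adjusted p = 0.00583 for the range of 0.78). Sos1 fell least in 129X1/SvJ (-0.42, SE 0.10, against -1.06 to -0.70), where the T0 level was lowest (7.50, 7.58 and 7.40, against 7.60 to 8.18 in the others), and the range was 0.64 (adjusted p = 0.00562).

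In 4 of these 11 genes the sign of the response differed between strains, and the test of that difference was called under both other scalings, while the calls in single strains were not all kept. Lcp2 rose in A/J (0.20, SE 0.09, adjusted p = 0.0477) and DBA/2J (0.26, SE 0.10, adjusted p = 0.0247), and fell in C57BL/6J (-0.41, SE 0.09, adjusted p = 1.73e-04) and Balb/c (-0.35, SE 0.10, adjusted p = 0.00355), which is why its mean was near 0. The test of the difference between strains gave an adjusted p of 7.28e-04, the lowest among the 38 genes. Lat rose in A/J (0.28) and Balb/c (0.33) and fell in 129X1/SvJ (-0.34, SE 0.12, adjusted p = 0.0149), with 0.0139 for the difference. Without Balb/c T1 replicate 2, the array that stood apart, the Lat response in Balb/c was 0.31 (adjusted p = 0.0501, against 0.0184 with it). Sh2d2a rose in 129X1/SvJ (0.47, SE 0.14, adjusted p = 0.00439) and fell in C57BL/6J (-0.39, SE 0.12, adjusted p = 0.00512), the strains with its lowest and highest T0 levels, with 0.0198 for the difference. Cd6 fell in 129X1/SvJ (-0.27, SE 0.11, adjusted p = 0.0430) and had 0.26 to 0.36 in the other strains, with 0.0258 for the difference. With centred arrays the falls were not called for Lat in 129X1/SvJ (-0.11, adjusted p = 0.411), Cd6 in 129X1/SvJ (-0.045, 0.736), Sh2d2a in C57BL/6J (-0.14, 0.241), and Lcp2 in Balb/c (-0.15, 0.273) and C57BL/6J (-0.15, 0.177). With quantile normalization the rises were not called for Lat in A/J (0.0673) and Balb/c (0.0867), and Lcp2 in A/J (0.0755) and DBA/2J (0.120). The call of the difference between strains was lost for Sh2d2a without 129X1/SvJ T1 replicate 1, T1 replicate 2 or T0 replicate 4 (adjusted p of 0.0568 to 0.0724), and for Cd6 without 129X1/SvJ T0 replicate 1 or T1 replicate 4 (0.126 and 0.152).

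**Figure D5:**
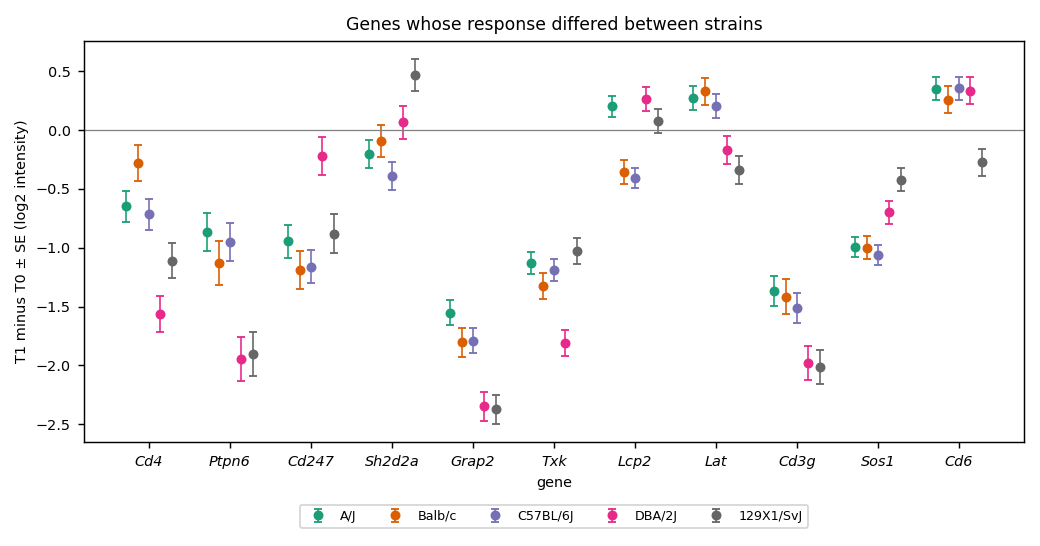
T1 minus T0 in log2 intensity with its standard error (y axis) in each of 5 strains, for the 11 genes whose responses differed between strains (x axis, by range). DBA/2J is lowest for Cd4 (-1.56) and highest for Cd247 (-0.22), and Lcp2, Lat, Sh2d2a and Cd6 have strains on both sides of 0.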

How the data were processed

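RNA of 34 samples was measured on Affymetrix arrays, 1 array a sample. The deposited values are log2 intensities, background-corrected, normalized between arrays and summarized per probe set by RMA, per the submitters' processing notes; no version was given. They ran from 1.04 to 14.26 and array medians from 5.28 to 5.39. Of 35556 probe sets, the platform annotation gives 21789 a single gene symbol, 1621 several and 12146 none. The brightest probe set with a single symbol stood for each of 19938 genes, and 11413 whose highest group mean reached the median of all values, 5.327, were tested. Array intensities carry no read depth, and the number of arrays limits the precision.

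A single model of the 10 groups of strain and time was fitted to the deposited log2 values with limma 3.58.1 (lmFit and eBayes) in R 4.3.3. Contrasts gave T1 minus T0 as the mean of 5 strains and in each strain, F tests over strains at T1, at T0 and of the response, and each strain minus the mean of the other 4. All adjusted p values are from this limma fit, by Benjamini-Hochberg over 11413 genes in each comparison, and a gene was called under 0.05. The script was tested on simulated data. Members and gene lists were chosen with earlier results of these data known. All members are named; values by array or group are given for at least the 6 largest rises and 8 largest falls, and for the called genes with the 8 largest strain ranges at T0, 6 at T1 and 8 in the response. Other lists are named by their 3 largest rises and 3 largest falls. Promoter windows and positions were from RefSeq. Alternatives covered scaling, filter, probe set choice, variance model, array weights, replicate blocks and leaving out each array.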

Additional observations from a re-analysis of the deposited data

Results flagged for a closer look

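Responses to stimulation that differed between strains, by an F test of the response in limma, were found for Lcp2 (adjusted p = 7.28e-04), Cd4 (0.00105), Grap2 (0.00173), Ptpn6 (0.00391), Sos1 (0.00562), Txk (0.00583), Lat (0.0139), Sh2d2a (0.0198), Cd247 (0.0242), Cd6 (0.0258) and Cd3g (0.0499).

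In groups of 4 arrays, single arrays stood apart from the other 3 of their group by Dixon's ratio, the gap to the nearest array over the group's range. Of 152 such groups over the 38 genes, 5 passed its critical value, and chance passes about 1 in 20. Grap2 had 8.37 in C57BL/6J T1 replicate 1 and 8.58 to 8.59 in the others (ratio 0.963). Bcl10 had 7.48 in A/J T1 replicate 4 and 7.78 to 7.84 in the others (ratio 0.839). In C57BL/6J T1 replicate 4 the same gene had 7.44, and 7.74 to 7.80 in the others (ratio 0.847). Sla was apart on both arrays of A/J replicate 5, low at T1 with 10.22 against 10.48 to 10.52 (ratio 0.894) and high at T0 with 9.55 against 9.10 to 9.17 (ratio 0.840).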

How the results depend on the processing

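Of the 33 calls in the mean stimulation, 28 were kept under every alternative run, and each of the 5 genes not called was called under at least 1 alternative. With arrays centred on the median of the kept genes, 15 members rose, as did 5908 of all 11413 genes, and the members' median change was -0.28. Grb2 became 0.10, Lcp2 0.19, Nck1 0.14, Pag1 0.052 and Sh2d2a 0.20. The response of Ptprc became 0.016 in C57BL/6J and 0.056 in DBA/2J, since this scaling shifts every gene upward. Leaving out each array in turn gave 33 to 34 calls in the mean stimulation (9 to 10 rises, 24 to 25 falls, median -0.52 to -0.49), 29 to 32 in A/J, 27 to 32 in Balb/c, 30 to 31 in C57BL/6J, 25 to 30 in DBA/2J and 26 to 31 in 129X1/SvJ, and 21 to 25 between strains at T1, 18 to 24 at T0 and 9 to 13 in the response. Without Balb/c T1 replicate 2 these last counts were 25, 24 and 13. Array weights gave 34 in the mean, 31 at T1, 27 at T0 and 15 in the response.

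Samples with the same strain and number at T1 and T0 had deviations from their group means that correlated by -0.08 to 0.47 (median 0.26), over 0.1 in 14 of 17 pairs, and 13 of 17 T0 samples correlated best with their own T1 sample. Arrays of the same number and time in different strains correlated by a similar amount (-0.18 to 0.55, median 0.24, 54 pairs). Since not all of the 17 pairs of T1 and T0 samples passed, the samples were not treated as paired. A replicate block of strain and number gave 33 calls in the mean stimulation and 13 in the response, and a replicate block of the number across strains gave 28 at T1 and 21 at T0. Ubash3a at T0 lost its call in 10 alternatives. Groups of 3 or 4 arrays limit what strain differences can be called.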
